A study of Mus musculus with 15 samples.

Results

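The KDEL receptor family is made up in the mouse of *Kdelr1*, *Kdelr2* and *Kdelr3*, and all 3 genes were present among the 17454 genes measured in erythro-myeloid progenitors (EMPs) of the yolk sac (YS). The family was chosen on measured values: *Kdelr3* was read in Tie2-Ezh2-KO libraries and not in WT libraries, beside paralogs that were read in every library. Levels of the members in all 4 groups are therefore given as a description, without a test. KDEL receptors sit in the membranes of the Golgi and of the compartment between the ER and the Golgi. There they bind soluble chaperones and folding enzymes that have escaped from the ER and carry a KDEL-type retrieval signal at their C terminus. Receptor and cargo return to the ER in vesicles coated with COPI, the cargo is released at the higher pH of the ER, and the genes of the family can be switched up by the unfolded protein response.

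RNA-seq was carried out on EMPs sorted from E10.5 YS as LIN-SCA1-KIT+CD41+CD16/32+ cells, and each of the 15 libraries came from 1 YS. Embryos had a C57BL/6 background and were homozygous for a floxed allele of *Ezh2* (*Ezh2* fl/fl), the gene of the methyltransferase subunit of polycomb repressive complex PRC2. In the 5 Tie2-Ezh2-KO libraries (*Tie2-Cre* Tg/+), Cre was driven by a promoter active from the endothelial stage, before EMPs form. In the 5 Vav-Ezh2-KO libraries (*Vav-iCre* Tg/+), it was driven by a promoter active from the onset of the hematopoietic stage. The 3 Tie2-Ezh2-WT and 2 Vav-Ezh2-WT libraries came from *Ezh2* fl/fl embryos of the same crosses without Cre and served together as 5 WT controls, so both knockouts are compared with the same controls. The labels give 500 cells per library, where the methods of the study give a smaller number. Values are RPKM, reads scaled to gene length and library depth, which allow levels of different genes to be set side by side. Reads on genes ranged from 10407398 to 41025074 per library.

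*Ezh2* itself was read at 36.9, 39.5 and 30.1 RPKM in Tie2-Ezh2-WT and at 42.0 and 41.5 RPKM in Vav-Ezh2-WT libraries. The 5 Tie2-Ezh2-KO libraries were at 27.8, 26.2, 24.8, 29.5 and 26.5 RPKM, each below every WT library. The difference in mean log2(RPKM + 0.2) was -0.48 (SE 0.12, limma adjusted p = 0.0418; two-sided exact permutation p = 0.00794, the smallest possible with 5 against 5). The 5 Vav-Ezh2-KO libraries were at 33.7, 42.4, 37.8, 38.1 and 34.0 RPKM, within or near the WT range (difference -0.023, SE 0.11, limma adjusted p = 0.969). Against the 2 Vav-Ezh2-WT libraries alone the difference was -0.17 (SE 0.13, limma adjusted p = 0.869), with 4 of 5 knockout libraries below both. The floxed exons encode the catalytic domain while the RPKM covers the whole gene, so reads from the rest of the transcript count too and the level is no measure of how complete the deletion was. The lower *Ezh2* of Tie2-Ezh2-KO did not pass the limma threshold of 0.05 against the 3 Tie2-Ezh2-WT libraries alone (difference -0.39, SE 0.14, adjusted p = 0.344). It passed in 9 of 21 alternatives.

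*Kdelr3* encodes the member with the lowest level in all 15 libraries. It was at 0 RPKM, with no read, in each of the 3 Tie2-Ezh2-WT and 2 Vav-Ezh2-WT libraries. Tie2-Ezh2-KO replicates 7, 9, 11, 13 and 17 held 4.93, 3.66, 3.72, 3.16 and 2.90 RPKM, from 111, 79, 78, 120 and 66 reads. All 5 Tie2-Ezh2-KO libraries thus lay above all 5 WT libraries, with a mean of 3.67 ± 0.779 RPKM (SD, n = 5). In Vav-Ezh2-KO replicates 1, 10 and 28 the gene was at 0 RPKM, while replicates 9 and 26 were at 0.499 and 0.615 RPKM from 13 and 10 reads. The Vav-Ezh2-KO group therefore held libraries with and without reads, and its highest library lay 4.72-fold below the lowest Tie2-Ezh2-KO library.

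The depth sets how low *Kdelr3* can have been in WT. With 1 read worth between 0.0172 and 0.0680 RPKM in the WT libraries, a limit of 3 reads per library corresponded to 0.0517 RPKM in the deepest, Tie2-Ezh2-WT replicate 12, and to 0.204 RPKM in the shallowest, Tie2-Ezh2-WT replicate 4. Against the mean of these limits over the 5 WT libraries, 0.128 RPKM, *Kdelr3* was at least 28.8-fold higher in Tie2-Ezh2-KO. These limits cover counting error only, since amplified reads are not independent molecules. On the scale of log2(RPKM + 0.2), where the size depends on the pseudocount, the difference between Tie2-Ezh2-KO and WT was 4.25 (SE 0.25). In bulk libraries, fewer cells of a type and less RNA per cell cannot be told apart.

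Counting such genes over the whole table gives the setting of these values. Of the 14154 genes above 0.2 RPKM in at least 1 of the 10 libraries, 3.29% had every Tie2-Ezh2-KO library above every WT library, and 1 of the 3 family members, *Kdelr3*, was among them. Only 31 genes, or 0.219%, were at 0 in every WT library and above 0 in every Tie2-Ezh2-KO library, *Kdelr3* being the single member of the family in this set. By mean RPKM in Tie2-Ezh2-KO it ranked 1 of the 31, ahead of *Rln3* (relaxin 3, 2.35 RPKM; named after its values were seen). Since the family was chosen on this contrast, nothing is read from these counts.

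*Kdelr2*, which encodes the most abundant receptor of the 3, was read at a similar level in every group. It was at 58.1, 37.2 and 29.3 RPKM in Tie2-Ezh2-WT replicates 4, 10 and 12 and at 44.4 and 39.5 RPKM in Vav-Ezh2-WT replicates 4 and 6. Tie2-Ezh2-KO libraries were at 40.1, 47.9, 30.1, 35.7 and 35.4 RPKM, all inside the WT range. Vav-Ezh2-KO libraries, at 46.0, 41.8, 40.2, 44.6 and 44.9 RPKM, also lay inside it and were the least dispersed. Their coefficient of variation was 5.50%, against 17.5% in Tie2-Ezh2-KO and 25.6% in WT. Within WT it was 35.9% in the 3 Tie2-Ezh2-WT libraries and 8.12% in the 2 Vav-Ezh2-WT libraries. The mean difference between Tie2-Ezh2-KO and WT was -0.12 on the log2 scale (SE 0.17), smaller than its error, and its sign turned when Tie2-Ezh2-WT replicate 4 was left out.

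*Kdelr1*, the founding member of the family, stood between the others and differed more between libraries. Tie2-Ezh2-WT replicates 4, 10 and 12 were at 9.77, 10.53 and 5.91 RPKM, and Vav-Ezh2-WT replicates 4 and 6 at 12.7 and 16.99 RPKM. Values of 14.1, 11.7, 4.43, 5.74 and 10.96 RPKM were found for Tie2-Ezh2-KO replicates 7, 9, 11, 13 and 17, while Vav-Ezh2-KO replicates 1, 9, 10, 26 and 28 were at 15.3, 19.4, 18.1, 20.7 and 16.3 RPKM. Both WT libraries of the Vav cross were above all 3 of the Tie2 cross. How many of all genes had this order among so few WT libraries was not counted, and nothing is read from it. Among the knockouts, the libraries of the Vav cross were the higher ones too. The difference between Tie2-Ezh2-KO and all 5 WT libraries was -0.30 (SE 0.32), and with only the 3 Tie2-Ezh2-WT libraries as controls it was 0.016 (SE 0.36), so neither was larger than its error.

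Set against each other, the 2 knockouts did not overlap for *Kdelr1* or *Kdelr3*. Every Tie2-Ezh2-KO library was below every Vav-Ezh2-KO library in *Kdelr1*, as were 1.67% of the 14120 genes above 0.2 RPKM in at least 1 knockout library. Every Tie2-Ezh2-KO library was above every Vav-Ezh2-KO library in *Kdelr3*, as were 3.56% of these genes. The knockouts differ in the Cre cross as well as in the stage of deletion, and these cannot be told apart for either gene. The difference was not tested.

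**Figure D1:**
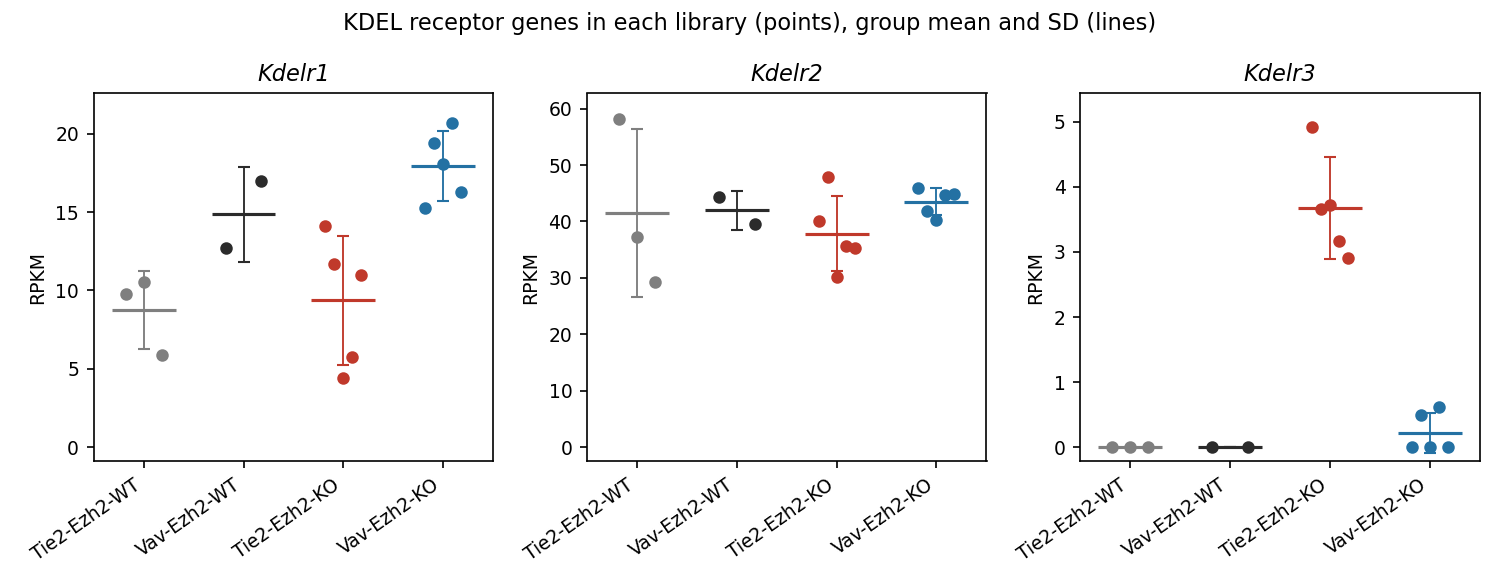
RPKM (vertical axes, linear, a different range for each gene) of *Kdelr1*, *Kdelr2* and *Kdelr3* in the 15 libraries, by group. Points are libraries, horizontal lines are group means and error bars are SDs. *Kdelr3* is at 0 RPKM in all 5 WT libraries and between 2.90 and 4.93 RPKM in Tie2-Ezh2-KO, *Kdelr2* overlaps among all groups, and *Kdelr1* lies between 15.3 and 20.7 RPKM in Vav-Ezh2-KO.

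The order of the members was the same in all 15 libraries, with *Kdelr2* above *Kdelr1* and *Kdelr1* above *Kdelr3*. In WT, *Kdelr2* was 4.05-fold above *Kdelr1* on average, with a range of 2.33 to 5.95 over the 5 libraries. Summed over the family, WT libraries held 52.9 ± 12.2 RPKM (SD, n = 5), Tie2-Ezh2-KO libraries 50.9 ± 10.3 RPKM (SD, n = 5) and Vav-Ezh2-KO libraries 61.7 ± 2.72 RPKM (SD, n = 5). Group means of the sum thus lay within the spread of the WT libraries, which ran from 35.2 to 67.9 RPKM.

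What *Kdelr3* added to this sum was small. Its share of the family RPKM was 8.33%, 5.78%, 9.73%, 7.10% and 5.89% in Tie2-Ezh2-KO replicates 7, 9, 11, 13 and 17, a mean of 7.37% ± 1.68 (SD, n = 5). In the Vav-Ezh2-KO libraries with reads the share was 0.809% and 0.932%. *Kdelr2* made up 78.9% ± 6.04 of the family in WT, 74.8% ± 5.03 in Tie2-Ezh2-KO and 70.6% ± 3.44 in Vav-Ezh2-KO (SD, n = 5 each). The share of *Kdelr1* was 21.1% ± 6.04 in WT, 17.8% ± 5.48 in Tie2-Ezh2-KO and 29.1% ± 3.09 in Vav-Ezh2-KO (SD, n = 5 each). In Tie2-Ezh2-KO the mean level of *Kdelr3* came to 9.71% of that of *Kdelr2* and 39.2% of that of *Kdelr1*.

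After the later deletion the 2 paralogs read in WT are described in the same way, since the family was chosen with all 4 groups in view. *Kdelr1* was at 17.95 ± 2.22 RPKM in Vav-Ezh2-KO and 11.2 ± 4.07 RPKM in WT (SD, n = 5 each), and 3 of the 5 knockout libraries were above every WT library. The difference was 0.74 on the log2 scale (SE 0.21). It was 0.28 (SE 0.17) against the 2 Vav-Ezh2-WT libraries alone, which lie above the WT libraries of the other cross. That order was not set beside all genes, and nothing is read from it. For *Kdelr2* the difference was 0.10 (SE 0.14), with no knockout library outside the WT range.

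Markers of the sorted cells and of other cells of the YS were read in the same libraries. The 9 genes of the EMP gate and of progenitors summed to between 433 and 499 RPKM in WT, 344 and 475 in Tie2-Ezh2-KO and 366 and 502 in Vav-Ezh2-KO. None of the 9 was at 0 in any group. *Cd34* was the most abundant of them in WT and Tie2-Ezh2-KO and *Fcgr3*, which encodes CD16, in Vav-Ezh2-KO. The CD16/32 genes *Fcgr3* and *Fcgr2b* were at 66.9 to 108 and 4.68 to 6.67 RPKM in Tie2-Ezh2-KO against 100.5 to 152 and 6.53 to 12.2 in WT (differences -0.47 and -0.65, limma adjusted p = 0.131 each).

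Summed embryonic globin genes were higher in every Tie2-Ezh2-KO library than in any WT library. The 3 genes of primitive erythroid cells (*Hbb-bh1*, *Hbb-y* and *Hba-x*) summed to RPKM values of 309, 585, 855, 192 and 284 for replicates 7, 9, 11, 13 and 17 of Tie2-Ezh2-KO. The 5 WT libraries lay between 65.2 and 142 RPKM, and Vav-Ezh2-KO libraries between 59.9 and 155 RPKM. *Hbb-bh1* was the most abundant of the 3 in each group, none of them was at 0, and *Hba-x* rose from a mean of 1.36 RPKM in WT to 32.9 to 339 RPKM in Tie2-Ezh2-KO. *Hbb-y* overlapped, at 1.45 to 8.72 RPKM in Tie2-Ezh2-KO and 1.496 to 4.12 in WT (limma adjusted p = 0.779), while *Hba-x* (difference 6.33, limma adjusted p = 8.88e-05) and *Hbb-bh1* (difference 1.18, limma adjusted p = 0.0441) were called higher. *Kdelr3* was at 3.72 RPKM in the library with the highest globin sum and at 3.16 RPKM in the Tie2-Ezh2-KO library with the lowest. The part of this difference in the level of *Kdelr3* was not tested.

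Summed genes of the visceral endoderm, the epithelium that lines the YS, were high in 1 library of each of 2 groups. The 8 genes summed to 151 RPKM in Tie2-Ezh2-WT replicate 4 and to 224 RPKM in Tie2-Ezh2-KO replicate 7, led by *Afp* and *Apoa1*, and in the other libraries to 5.01, 5.41, 10.99 and 12.6 RPKM in Tie2-Ezh2-KO, 1.603 to 5.95 in WT and 1.92 to 5.24 in Vav-Ezh2-KO. *Kdelr3* was at 0 RPKM in the first of these and at 4.93 RPKM in the second, the highest value of its group. *Amn*, a partner of cubilin in endocytosis and 1 of the 8 genes, was higher in all 5 Tie2-Ezh2-KO libraries, at 1.52 to 4.66 RPKM against 0 to 0.798 in WT (difference 3.01, limma adjusted p = 0.00155). The other genes of this list were not called: *Afp*, *Ttr*, *Apoa1*, *Apoa4*, *Cubn* and *Rbp4* had limma adjusted p from 0.916 to 0.984, and *Apob* was too low to be tested. *Amn* lay above every WT library in each Tie2-Ezh2-KO library, as did 3.29% of all 14154 genes. Its part in the level of *Kdelr3* was not tested.

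Endothelial genes summed to 165 ± 13.8 RPKM in WT, 166 ± 8.80 in Tie2-Ezh2-KO and 145 ± 14.9 in Vav-Ezh2-KO (SD, n = 5 each), with *Egfl7* the most abundant and *Cdh5* and *Cldn5* below 1 RPKM in every library. Behind these sums, the adhesion gene *Pecam1* was at 6.67 to 13.8 RPKM in Tie2-Ezh2-KO against 15.4 to 22.5 in WT (limma adjusted p = 0.150). How many of all genes were lower in this way was not counted. *Esam*, *Plvap*, *Kdr* and *Emcn* had differences of 0.38, 0.58, 0.57 and 0.85 (limma adjusted p = 0.414, 0.245, 0.669 and 0.577). Mesenchymal genes summed to at most 3.88 RPKM in any library, with *Pdgfra* at 0 in WT and Tie2-Ezh2-KO. *Pdgfrb* was the most abundant by mean in the 5 WT libraries together and in each knockout, and *Postn* in Tie2-Ezh2-WT alone. Macrophage genes summed to at most 11.5 RPKM, with *Csf1r* the most abundant and *C1qa* at 0 in all groups. Megakaryocyte genes summed to 219 ± 88.5 RPKM in WT, 192 ± 51.3 in Tie2-Ezh2-KO and 201 ± 58.3 in Vav-Ezh2-KO (SD, n = 5 each), with none at 0 in every library of a group. The platelet receptor gene *Gp1ba* was called lower in Tie2-Ezh2-KO, at 2.87 to 5.42 RPKM against 4.87 to 10.29 in WT (difference -0.94, limma adjusted p = 0.0495).

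The pathway that the receptors serve was then followed through 137 genes in 9 lists. In Tie2-Ezh2-KO against WT, 1 of 137 genes tested was called higher and 0 lower at a limma adjusted p below 0.05, and 0 were called by voom on recovered reads, which called 337 of all 14154. By limma, over all 14154 genes, 343 (2.42%) were called higher and 43 (0.304%) lower, or 2.73% in either direction. The median difference of the 137 genes was 0.00, against 0.01 for all genes. At an unadjusted p below 0.05, 8 of the 137 genes passed, or 5.84%, against 10.97% of all genes, and 6 of them were higher. In Vav-Ezh2-KO against WT, 0 of 136 genes tested were called by limma, and 0 by voom on recovered reads. Over all genes limma called 1 of 13646, or 0.00733%, and voom called 0; 1082 by limma and 1197 by voom passed an unadjusted p below 0.05. The gene called by limma was *Sva*, at 0 RPKM in every WT library and between 1.37 and 4.50 RPKM in Vav-Ezh2-KO (named after its values were seen). Of the 136, 8 genes passed an unadjusted p below 0.05, or 5.88%, against 7.93% of all genes, and 7 of them were lower. The median difference was -0.08, against -0.02 for all genes. Both comparisons share the 5 WT libraries.

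Cargo of the receptors came first. The 25 clients of the hand-written list, whose C termini were not read here, included none that was called in either comparison. Their median difference from WT was 0.13 in Tie2-Ezh2-KO, with 17 genes higher and 8 lower, and -0.12 in Vav-Ezh2-KO, with 6 higher and 19 lower. *Hspa5*, the Hsp70 chaperone of the ER, was the most abundant, at 757 ± 49.3 RPKM in WT, 735 ± 63.1 in Tie2-Ezh2-KO and 584 ± 79.1 in Vav-Ezh2-KO (SD, n = 5 each). In Vav-Ezh2-KO its difference was -0.38 (SE 0.10, limma adjusted p = 0.519), with libraries at 489 to 690 RPKM against 696 to 825 in WT. The share of all genes with such a gap was not counted, and nothing is read from it. *Calr*, a lectin chaperone that stores calcium, was at 448 ± 63.4, 428 ± 60.7 and 441 ± 58.0 RPKM, and the disulfide isomerase *Pdia6* at 292 ± 16.9, 289 ± 26.0 and 270 ± 15.3 RPKM in the same order (SD, n = 5 each). These abundant chaperones overlapped between Tie2-Ezh2-KO and WT.

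Of the 25 clients, 3 passed an unadjusted p below 0.05 in Tie2-Ezh2-KO, beside 1552 of all 14154 genes, and the 3 were higher. *Fkbp10*, a prolyl isomerase that folds collagen, ran from 3.85 to 6.67 RPKM in Tie2-Ezh2-KO and from 2.19 to 4.71 RPKM in WT (difference 0.88, SE 0.25, limma adjusted p = 0.0927). *Serpinh1*, the collagen chaperone, ran from 1.88 to 2.75 RPKM and from 0.289 to 2.12 RPKM (difference 1.09, SE 0.38, limma adjusted p = 0.210). *Fkbp9*, another prolyl isomerase of the ER, ran from 9.32 to 18.7 RPKM and from 8.40 to 12.4 RPKM (difference 0.50, SE 0.19, limma adjusted p = 0.253). None of them passed the threshold, and each overlapped between the groups; they were named after their values were seen.

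Of 13 clients listed as having a variant signal, also not read here, 1 was called in Tie2-Ezh2-KO and 0 in Vav-Ezh2-KO, with medians of 0.08 and -0.12. The called gene was *Pdia2*, a protein disulfide isomerase known from the pancreas, at 0 to 0.283 RPKM in WT, 0.182 to 0.831 in Tie2-Ezh2-KO and 0 to 0.0946 RPKM in Vav-Ezh2-KO. Between 5 and 32 reads stood behind it in Tie2-Ezh2-KO and between 0 and 20 in WT, and the groups overlapped. Its difference of 1.503 (SE 0.36, limma adjusted p = 0.0387) passed the threshold in 8 of 21 alternatives. *Pdia3*, the isomerase that works with calreticulin, was the most abundant of the list, at 465.9 ± 35.3 RPKM in WT and 435 ± 38.0 in Tie2-Ezh2-KO (SD, n = 5 each). *Erp29* was at 124 ± 14.0 and 127 ± 17.6 RPKM and *Creld2* at 113 ± 6.08 and 125 ± 18.3 RPKM in the same order (SD, n = 5 each), without passing the test. In Vav-Ezh2-KO, *Creld2* was at 94.4 ± 11.2 RPKM (SD, n = 5), a difference of -0.26 (SE 0.09, limma adjusted p = 0.542).

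Receptor and client levels can be set side by side. The 25 clients summed to 2670 ± 150 RPKM in WT, 2620 ± 212 in Tie2-Ezh2-KO and 2395 ± 139 in Vav-Ezh2-KO (SD, n = 5 each). Divided by the summed receptor RPKM of the same library, this gave 52.6 ± 11.9 in WT, 53.5 ± 13.0 in Tie2-Ezh2-KO and 38.9 ± 2.21 in Vav-Ezh2-KO (SD, n = 5 each). The ratios of Vav-Ezh2-KO, from 35.9 to 41.3, overlapped with those of WT, from 39.5 to 71.6, and with those of Tie2-Ezh2-KO, from 35.9 to 71.1.

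The machinery that carries the receptors back was next. COPI coats the vesicles that bud from the Golgi, and Arf GTPases recruit it. Of 17 genes of the coat and its Arf cycle 0 were called by limma in either comparison, with medians of -0.07 in Tie2-Ezh2-KO and -0.02 in Vav-Ezh2-KO. The coat subunits *Cope* and *Copz1* were at 353 ± 30.0 and 333 ± 31.6 RPKM in WT and at 360 ± 49.1 and 306 ± 41.8 in Tie2-Ezh2-KO (SD, n = 5 each). *Arf1* was at 346 ± 43.4 RPKM in WT and 329 ± 49.8 in Tie2-Ezh2-KO (SD, n = 5 each). At an unadjusted p below 0.05, 0 of the 17 passed in Tie2-Ezh2-KO and 1, lower, in Vav-Ezh2-KO.

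Tether and SNARE proteins capture these vesicles at the ER. None of the 9 genes was called by limma in either comparison, 0 passed an unadjusted p below 0.05, and the medians were -0.03 in Tie2-Ezh2-KO and 0.05 in Vav-Ezh2-KO. The SNAREs *Use1* and *Sec22b* were at 65.7 ± 5.46 and 73.7 ± 4.54 RPKM in WT and at 63.1 ± 9.78 and 75.9 ± 9.41 in Tie2-Ezh2-KO (SD, n = 5 each). *Scfd1*, a regulator of SNARE assembly, was at 69.9 ± 8.31 and 75.1 ± 6.13 RPKM in the same order (SD, n = 5 each). Differences of all 3 were smaller than the spread between libraries.

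Other receptors select cargo at the same compartments, and their list also holds *Sec61a1*, a gene of the channel through which proteins enter the ER. Of 20 genes 0 were called by limma in either comparison, with medians of 0.04 in Tie2-Ezh2-KO and -0.09 in Vav-Ezh2-KO, and 1 passed an unadjusted p below 0.05 in each. *Rer1*, a retrieval receptor for membrane proteins, was at 119 ± 7.60 RPKM in WT and 125 ± 16.2 in Tie2-Ezh2-KO (SD, n = 5 each). *Tmed2*, a p24 protein of COPI and COPII vesicles, was at 551 ± 59.5 and 567.6 ± 64.5 RPKM, and the cornichon gene *Cnih* at 121 ± 19.4 and 124 ± 17.1 RPKM, in the same order (SD, n = 5 each). COPII coats vesicles that leave the ER, and 0 of its 16 genes were called by limma. Medians were -0.04 in Tie2-Ezh2-KO and -0.05 in Vav-Ezh2-KO, with 1 and 2 genes at an unadjusted p below 0.05. The outer coat subunit *Sec13* was at 304 ± 14.4 RPKM in WT and 305 ± 23.1 in Tie2-Ezh2-KO, and the GTPase genes *Sar1b* and *Sar1a* at 121 ± 8.04 and 100.5 ± 3.33 in WT and 119 ± 9.91 and 100.3 ± 12.1 in Tie2-Ezh2-KO (SD, n = 5 each).

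**Figure D2:**
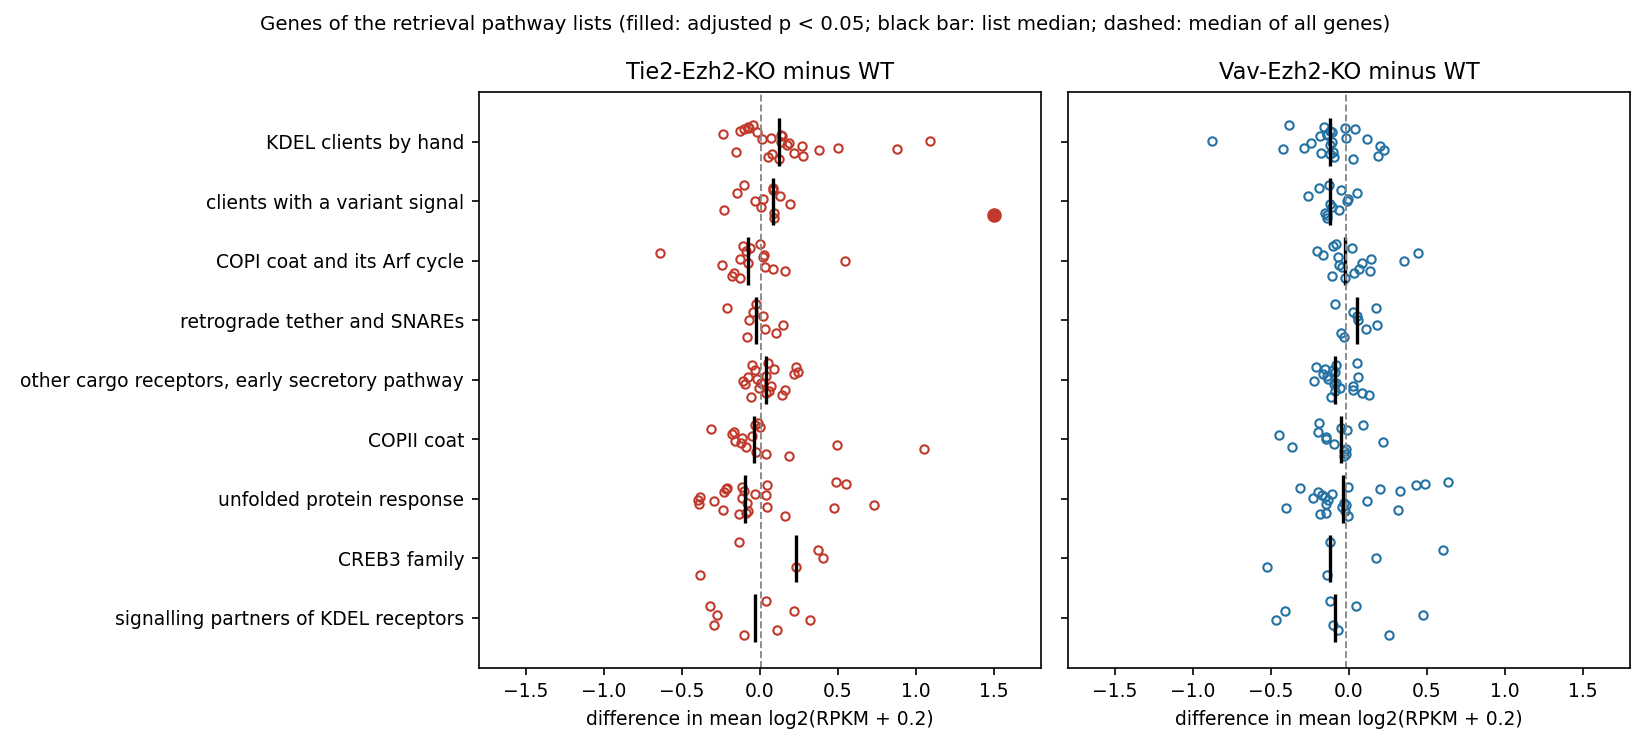
Differences in mean log2(RPKM + 0.2) from the 5 WT libraries (horizontal axes) for the genes of the 9 lists (rows), Tie2-Ezh2-KO on the left and Vav-Ezh2-KO on the right. Circles are genes, filled where the limma adjusted p is below 0.05, black bars are list medians and dashed lines the median of all genes. The only filled circle is *Pdia2* at 1.503 in Tie2-Ezh2-KO, and list medians lie between -0.12 and 0.23.

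The unfolded protein response senses misfolded proteins in the ER. Of its 24 genes 0 were called by limma in either comparison, and medians were -0.09 in Tie2-Ezh2-KO, with 8 higher and 16 lower, and -0.04 in Vav-Ezh2-KO, with 7 higher and 17 lower. In Tie2-Ezh2-KO 2 genes passed an unadjusted p below 0.05, both lower, and in Vav-Ezh2-KO 1, also lower. *Edem1*, which acts in the degradation of misfolded glycoproteins, was at 11.9 to 18.7 RPKM in Tie2-Ezh2-KO against 19.8 to 23.4 in WT (difference -0.38, SE 0.14, limma adjusted p = 0.248). The share of all genes with such a gap was not counted, and nothing is read from it. *Derl1*, of the same degradation pathway, was at 35.6 to 54.4 RPKM against 51.5 to 59.7 (difference -0.30, SE 0.13, limma adjusted p = 0.373). Both were named after their values were seen. *Xbp1*, a transcription factor of the response, was at 85.4 ± 8.72 RPKM in WT, 74.9 ± 16.1 in Tie2-Ezh2-KO and 68.8 ± 9.16 in Vav-Ezh2-KO (SD, n = 5 each). *Herpud1*, which acts in ER-associated degradation, was at 122 ± 27.3, 103 ± 13.5 and 106 ± 22.2 RPKM in the same order (SD, n = 5 each). *Asns*, the asparagine synthetase gene driven by ATF4, was at 140 ± 12.3, 144 ± 8.21 and 136 ± 12.3 RPKM (SD, n = 5 each).

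The CREB3 family holds transcription factors that are anchored in the ER membrane and released by cleavage in the Golgi. Of 5 genes 0 were called by limma in either comparison, with medians of 0.23 in Tie2-Ezh2-KO and -0.12 in Vav-Ezh2-KO; 0 and 1 passed an unadjusted p below 0.05. *Creb3* was at 22.7 ± 2.29 RPKM in WT and 20.7 ± 2.51 in Tie2-Ezh2-KO (SD, n = 5 each). *Creb3l1* was at 1.14 ± 0.303 and 1.52 ± 0.308 RPKM and *Creb3l2* at 0.648 ± 0.291 and 0.959 ± 0.528 RPKM in the same order (SD, n = 5 each). Of 8 genes for signalling partners of KDEL receptors 0 were called by limma and 0 passed an unadjusted p below 0.05, with medians of -0.03 in Tie2-Ezh2-KO and -0.09 in Vav-Ezh2-KO. *Gnas*, which encodes a stimulatory G protein subunit, was at 118 ± 6.95 RPKM in WT and 122 ± 8.27 in Tie2-Ezh2-KO (SD, n = 5 each). The kinase genes *Prkaca* and *Fyn* were at 41.4 ± 3.97 and 21.5 ± 2.95 RPKM in WT and at 44.8 ± 4.20 and 17.98 ± 5.33 in Tie2-Ezh2-KO (SD, n = 5 each).

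The members lie on 3 chromosomes, each on the forward strand and with 5 exons at most in the annotated transcripts. In GRCm38, *Kdelr1* is at chr7:45872840-45883726, *Kdelr2* at chr5:143403820-143421904 and *Kdelr3* at chr15:79516408-79527739. Gene lengths behind the RPKM were 1525, 1850 and 1414 bases. Because 1 alignment was kept per read, near-identical copies could share reads. Of the 1337 stretches of 75 bases, the read length, in the *Kdelr3* transcript, 0 also occurred in an annotated transcript of another gene, and the same held for 1645 stretches of *Kdelr1* and 1755 of *Kdelr2*. At its 3′ end *Kdelr3* overlaps 44 bases of *Ddx17*, an RNA helicase gene on the reverse strand. The library kit does not mark strand, so reads within this overlap cannot be told apart; *Ddx17* was between 1.35 and 2.81 RPKM in all 15 libraries.

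Genes next to *Kdelr3* were set beside all genes. Of the 5 genes on either side, between chr15:79258195 and chr15:79672862, 8 were tested in Tie2-Ezh2-KO, with differences from -0.16 to 0.88. Of these 0 were called by limma (2.73% of all genes) or by voom (337 of all 14154), and 1 passed an unadjusted p below 0.05 (10.97%). *Dmc1*, a recombinase gene of meiosis 33758 bases away, had the largest, at 0.786 ± 0.619 RPKM in WT and 1.40 ± 0.475 in Tie2-Ezh2-KO (SD, n = 5 each; difference 0.88, SE 0.40, limma adjusted p = 0.427). *Ddx17* was at 2.35 ± 0.416 and 2.20 ± 0.548 RPKM, and the casein kinase gene *Csnk1e*, on the other side, at 18.7 ± 1.77 and 20.7 ± 3.35 RPKM in the same order (SD, n = 5 each). In Vav-Ezh2-KO 9 were tested, from -0.36 to 0.32. Of these 0 were called by limma (0.00733% of all genes) or voom, and 1 passed an unadjusted p below 0.05 (7.93%). With so few genes tested, nothing is read from these counts. Further out lie *Baiap2l2*, *Pla2g6*, *Maff*, *Tmem184b*, *Fam227a*, *Cby1* and *Tomm22*.

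For neighbours of the other members too, 0 genes were called by limma or by voom. Over all genes limma called 2.73% in Tie2-Ezh2-KO and 0.00733% in Vav-Ezh2-KO, and 10.97% and 7.93% passed an unadjusted p below 0.05. Nothing is read from the counts of neighbours. Around *Kdelr1*, 8 of 10 genes were tested in Tie2-Ezh2-KO, with differences from -0.31 to 0.59, and 7 in Vav-Ezh2-KO, from -0.22 to 0.59, with 0 and 1 at an unadjusted p below 0.05. The ribosome assembly gene *Grwd1* and the membrane protein gene *Emp3* were the most abundant of these, at 176 ± 9.00 and 89.7 ± 10.6 RPKM in WT (SD, n = 5 each). Around *Kdelr2*, 9 of 10 genes were tested in each comparison, with differences from -0.24 to 0.25 in Tie2-Ezh2-KO and from -0.39 to 0.46 in Vav-Ezh2-KO, and 0 and 2 passed an unadjusted p below 0.05. *Rac1*, a small GTPase gene of the actin cytoskeleton, was the most abundant there, at 193 ± 25.6 RPKM in WT, 176 ± 29.6 in Tie2-Ezh2-KO and 233 ± 24.6 in Vav-Ezh2-KO (SD, n = 5 each).

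**Figure D3:**
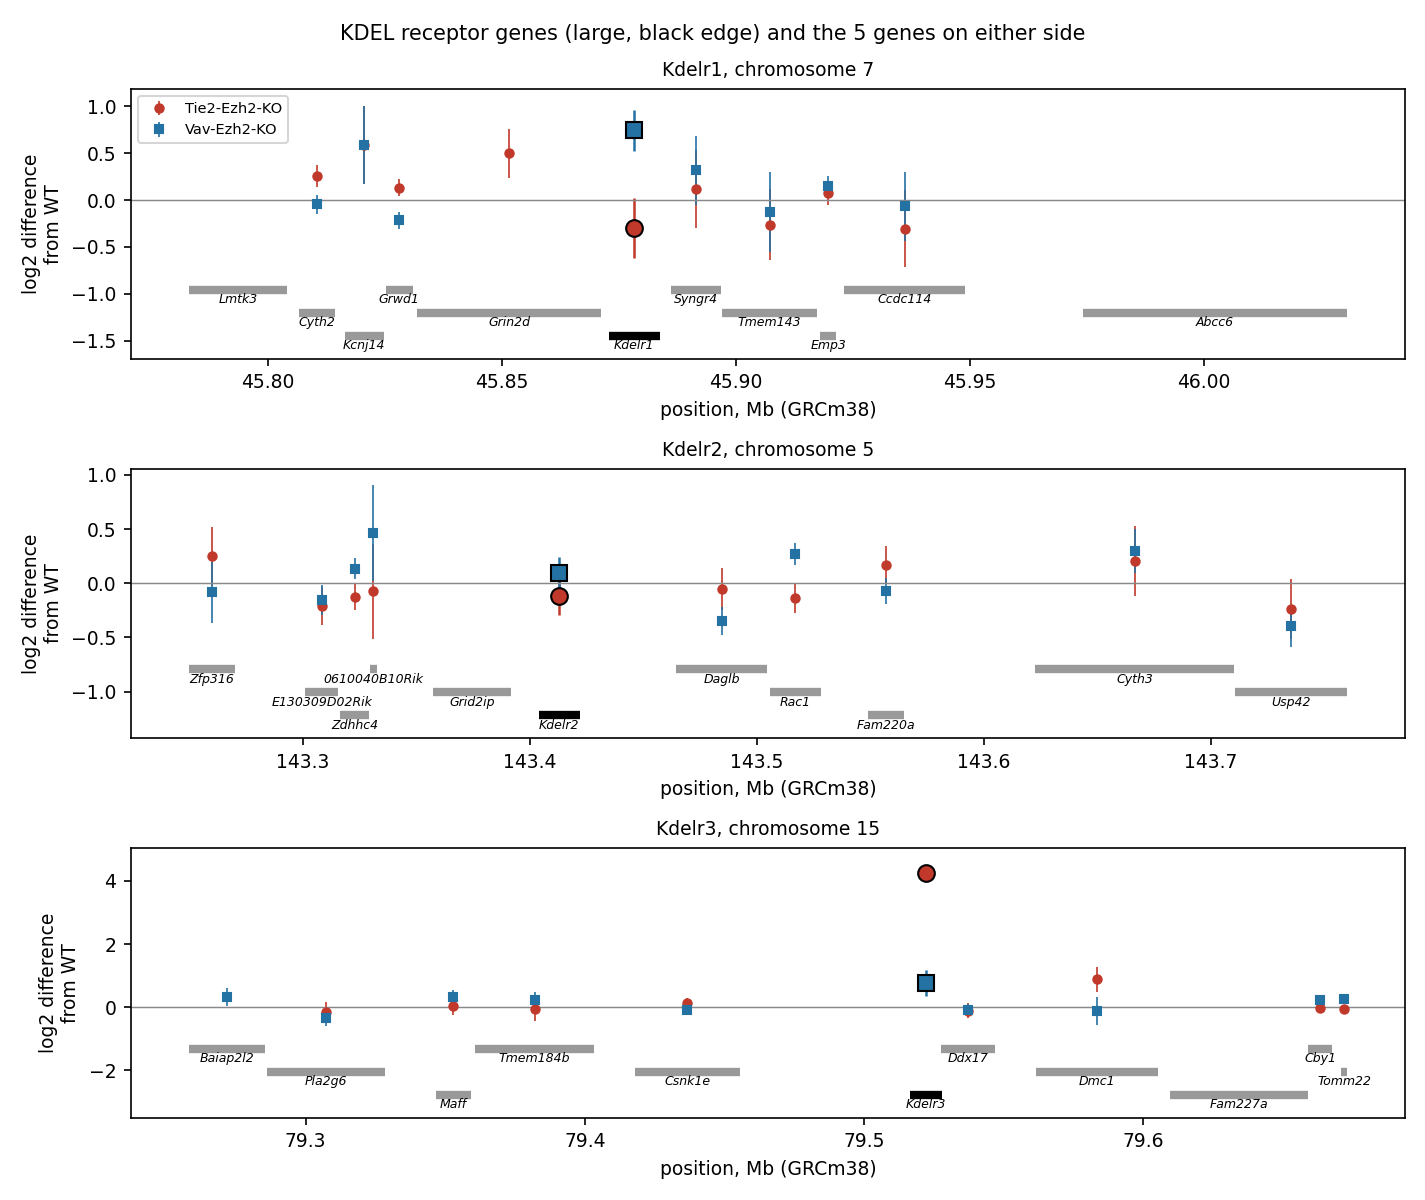
Differences in mean log2(RPKM + 0.2) from the 5 WT libraries (vertical axes, a different range in each panel) against position in Mb of GRCm38 for each KDEL receptor gene and the 5 genes on either side. Circles are Tie2-Ezh2-KO and squares Vav-Ezh2-KO, error bars are SEs, large symbols with a black edge are the family members, and bars below show the extent of each gene. *Kdelr3* is at 4.25 in Tie2-Ezh2-KO while its neighbours lie between -0.16 and 0.88.

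Promoter windows of 300 bases, from 250 before to 50 after the annotated start, were read from RefSeq (GRCm38.p6) for *Kdelr1* and *Kdelr3*. The *Kdelr3* window was the richer in G and C, at 69.7% against 57.0%, and held 27 CG dinucleotides against 10. Of all 32851 windows, 84.5% held fewer CG dinucleotides than *Kdelr3* and 56.5% fewer than *Kdelr1*, with a median of 7. Motifs named for the unfolded protein response were searched on both strands. TGACGTG, the core of the unfolded protein response element, had 1 match in *Kdelr3*, on the reverse strand, and 0 in *Kdelr1*; 2.01% of all windows hold it. CCACG had 2 matches in *Kdelr3*, 1 of them overlapping the TGACGTG match, and 0 in *Kdelr1*, beside 32.8% of windows. The ER stress element, CCAAT and CCACG with 9 bases between them, had 0 matches in both (0.119% of windows), as had CCAAT alone (37.4%). GGGCGG had 1 match in each (35.7%). A match describes the letters of the window and not a site. Capitals mark the TGACGTG match, which reads in reverse on the strand shown, 5′ to 3′ at chr15:79516158-79516457 for *Kdelr3* and chr7:45872590-45872889 for *Kdelr1*, both forward.
*Kdelr3*: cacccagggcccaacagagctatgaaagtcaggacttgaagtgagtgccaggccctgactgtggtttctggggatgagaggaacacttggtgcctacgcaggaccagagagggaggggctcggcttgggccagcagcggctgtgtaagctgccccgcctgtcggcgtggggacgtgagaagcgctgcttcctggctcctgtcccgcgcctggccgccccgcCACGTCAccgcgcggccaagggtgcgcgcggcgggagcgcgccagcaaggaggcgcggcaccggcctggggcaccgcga
*Kdelr1*: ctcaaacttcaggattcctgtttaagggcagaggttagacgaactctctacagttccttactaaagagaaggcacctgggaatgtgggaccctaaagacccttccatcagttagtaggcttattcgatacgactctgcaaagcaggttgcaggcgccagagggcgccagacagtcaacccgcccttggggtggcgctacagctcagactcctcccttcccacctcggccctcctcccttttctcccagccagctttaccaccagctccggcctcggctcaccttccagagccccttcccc

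By pattern over the 15 libraries, among 14394 genes, those most like each member by Pearson's r of log2(RPKM + 0.2) were taken as a description. Libraries of 1 group share their genotype, so the groups themselves set much of r. For *Kdelr3* the first was *Esx1*, a homeobox gene of the placenta (r = 0.972), with means of 0.0360 RPKM in WT, 7.03 in Tie2-Ezh2-KO and 0.130 in Vav-Ezh2-KO. It was followed by the hydrolase gene *Faah* (r = 0.962), the polycomb gene *Bmi1* (r = 0.959), the fatty acid elongase gene *Elovl2* (r = 0.955) and the small heat shock gene *Hspb8* (r = 0.953). *Bmi1* was at 10.3 to 15.6 RPKM in WT, 30.5 to 48.5 in Tie2-Ezh2-KO and 9.97 to 22.1 RPKM in Vav-Ezh2-KO. These 5 genes shared the higher level in Tie2-Ezh2-KO that also picked out *Kdelr3*.

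Different genes were most like the paralogs. *Kdelr1* was most like *Vdac1*, a channel of the outer mitochondrial membrane (r = 0.940), *Spr* (r = 0.930), *Rhoa* (r = 0.925), *Ociad1* (r = 0.923) and *Gm12657* (r = 0.919). *Vdac1* was at 84.7 to 181 RPKM in WT, 79.2 to 141 in Tie2-Ezh2-KO and 156 to 191 RPKM in Vav-Ezh2-KO, so it too was highest in the latter. *Kdelr2* was most like the actin gene *Actb* (r = 0.889), *Henmt1* (r = 0.877), *Gm15800* (r = 0.851) and *Rab9* (r = 0.843). Within the family, r was 0.585 between *Kdelr1* and *Kdelr2*, -0.34 between *Kdelr1* and *Kdelr3* and -0.27 between *Kdelr2* and *Kdelr3*.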

How the data were processed

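RNA-seq reads of 15 libraries (SMARTer Ultra Low kit, not strand-specific, 16 cycles of preamplification, single-end 75 bp) were aligned by the authors with TopHat 2.0.13 to GRCm38/mm10, with 1 alignment kept per read, and counted on RefSeq genes with featureCounts. The authors deposited RPKM per gene and library, on a linear scale. Replicates are separate YS. The labels do not assign libraries to the independent experiments of the study, so no batch term was fitted.

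Here, whole reads were recovered from the RPKM values. Library totals were inferred from single-exon genes of known length. Each gene length was then the smallest that made all values of the gene whole, so counts of genes with few reads can be understated. All 16877 genes above 0 gave whole reads within 0.001 read, which the choice of length favours. Differences were fitted with limma 3.58.1 in R 4.3.3 (empirical Bayes with trend) on log2(RPKM + 0.2), which understates changes of low genes, for genes above 0.2 RPKM in at least 1 library, with Benjamini-Hochberg adjustment over all of them and a threshold of 0.05. Exact permutation tests were two-sided. Alternatives were pseudocounts of 1 and 0.05, other filters, no trend, quantile and median scaling, other controls, voom on recovered reads and leaving out each library.

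Members and lists were chosen with earlier results of these data known. Tests planned for 2 members in Vav-Ezh2-KO are not given, since the family was chosen with all 4 groups in view. Genes were named by rule: the members, *Ezh2*, called genes and the 3 most abundant of each list, 5 neighbours on either side, the 5 genes most like each member, and cell type markers. Some genes that met the rule are not reported here. The client list is hand-written, as no protein sequences were used here. The promoter windows used here cover 2 of the 3 members. RefSeq positions were matched for 17359 of 17454 genes. Python 3.11.15 with SciPy 1.17.1 was used.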

Additional observations from a re-analysis of the deposited data

How the results depend on the processing

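The number of genes called in Tie2-Ezh2-KO was 386, and stayed within 1.5 times of it in 19 of 21 alternatives. It was 187 with the 3 Tie2-Ezh2-WT libraries as the controls and 217 with Tie2-Ezh2-WT replicate 4 and Tie2-Ezh2-KO replicate 7, rich in visceral endoderm genes, left out (an alternative chosen after seeing the data); both use fewer libraries. Leaving out each library gave 262 to 438. The count called lower, 43, was 17 to 49 leaving out each library, lowest without Vav-Ezh2-WT replicate 4. It was 8 with the 3 Tie2-Ezh2-WT libraries as the controls and 60 with quantile normalization. In Vav-Ezh2-KO 1 gene was called, 2 with corresponding WT libraries only, 0 with voom on recovered reads and 1 to 2 leaving out each library (2 without Tie2-Ezh2-WT replicate 10 or 12 or Vav-Ezh2-WT replicate 4).

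Of the pathway genes 1 was called in Tie2-Ezh2-KO. The count was 2 with all 15 libraries in one fit (*Pdia2* and *Sec16b*) and with a common median (*Pdia2* and *Fkbp10*). It was 0 with corresponding WT libraries only, no filter on low values, pseudocount 1, quantile normalization, voom, and the endoderm-rich libraries left out. Leaving out each library gave 0 to 2. The call of *Pdia2* was lost without Tie2-Ezh2-KO replicate 9, 13 or 17, Tie2-Ezh2-WT replicate 4 or 10, or Vav-Ezh2-WT replicate 4 or 6 (adjusted p over alternatives 0.00927 to 0.276). In Vav-Ezh2-KO 0 pathway genes were called in all 20 alternatives.

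*Kdelr3* was higher in Tie2-Ezh2-KO by 2.21 with pseudocount 1, 6.20 with pseudocount 0.05 and 7.59 with voom, since a group at 0 takes its value from the pseudocount; it was 4.15 to 4.33 leaving out each library. The difference of *Kdelr1* there ran from -0.50 to 0.016 and that of *Kdelr2* from -0.24 to 0.0078. In Vav-Ezh2-KO *Kdelr1* was higher in all 20 alternatives (0.28 to 0.91), which share libraries and so are not independent. *Kdelr2* ran from -0.023 to 0.22, the sign turning without Tie2-Ezh2-WT replicate 12. *Ezh2* was lower in Tie2-Ezh2-KO in all 21 alternatives (-0.56 to -0.39) and passed the threshold in 9 (adjusted p 0.0134 to 0.344). Its call was lost with voom, no trend and a common median (limma adjusted p = 0.0817, 0.0923 and 0.0598). The same held with corresponding WT libraries only and with the endoderm-rich libraries left out (limma adjusted p = 0.344 and 0.137). Leaving out 1 library, *Ezh2* lost its call without Tie2-Ezh2-KO replicate 7, 11 or 17, Tie2-Ezh2-WT replicate 4 or 10, or Vav-Ezh2-WT replicate 4 or 6. Its difference in Vav-Ezh2-KO, -0.023, was -0.17 with corresponding WT libraries only, turned to 0.020 with a common median and 0.0010 with quantile normalization, and was -0.10 to 0.015 leaving out each library (above 0 without Vav-Ezh2-KO replicate 1 or 28 or Vav-Ezh2-WT replicate 4 or 6). Where no construction is named, the cause was not tested. No paired analysis was possible because libraries of the groups compared came from separate YS and share at most 1 replicate number.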
